A study of Mus musculus with 6 samples.

Results

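The genes described here encode NF-κB transcription factor subunits and the inhibitors and feedback proteins that NF-κB itself induces. The set comprised 10 genes taken by symbol from the deposited gene tables: the subunit genes Nfkb1, Nfkb2, Rel and Relb, the IκB family genes Nfkbia, Nfkbie, Nfkbiz and Bcl3, and the feedback genes Tnfaip3 and Traf1. All 10 had values, out of 15605 genes with values, and all 10 passed the filter on low counts, out of 12546 genes that did.

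RNA was sequenced from CD8+ T cells of mouse spleen. The 3 NET samples had been exposed to neutrophil extracellular traps (NETs), the DNA, histone and granule protein webs that neutrophils cast out, at 10 μg/mL, and the 3 control samples had not. By the study's methods the spleens were from BALB/c mice bought at 6 to 8 weeks of age, both groups were cultured for 48 h, and the NETs were rinsed from neutrophils stimulated with the phorbol ester PMA. The methods do not say whether the T cells in this experiment were stimulated through the antigen receptor, nor which samples came from separate mice or cultures. P-values therefore rest on sample-to-sample spread that may be technical.

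NF-κB is a family of dimers. RelA, c-Rel (encoded by Rel) and RelB carry a transactivation domain, while the Nfkb1 and Nfkb2 products are long precursors that are processed to the short DNA-binding subunits p50 and p52. In resting T cells the dimers are held in the cytoplasm by inhibitors such as IκBα (Nfkbia) and IκBε (Nfkbie). Antigen receptor, costimulatory and cytokine signals activate the IκB kinase complex, which marks these inhibitors for degradation. The released dimers bind κB sites and induce, among others, the genes of their own precursors and inhibitors. This negative feedback limits the response, and in CD8+ T cells c-Rel is best known for its part in proliferation and IL-2 expression.

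The coordinates are those of mm10. Nfkb1 lies at chr3:135584655-135691969 and Nfkb2 at chr19:46300994-46312400. Rel lies at chr11:23736847-23770969 and Relb at chr7:19606217-19629438. Among the IκB family genes, Nfkbia lies at chr12:55489409-55492647, Nfkbie at chr17:45555700-45563169, Nfkbiz at chr16:55811375-55838954 and Bcl3 at chr7:19808462-19822824. Tnfaip3 lies at chr10:19000910-19015410 and Traf1 at chr2:34941750-34961812. Nfkb2 and Nfkbie are on the plus strand and the other 8 on the minus strand. Nfkb2 overlaps Psd and the long noncoding RNA gene AC114539.1 on the opposite strand, and Bcl3 overlaps 2 antisense genes. Whether reads were counted by strand is not given in the sources used here. Nfkb1 overlaps Gm43430 on its own strand, where strand would not separate the reads. How overlapping reads were assigned is not known, so the values of these 3 genes are uncertain to that extent. Psd had 12.1 to 18.2 CPM (read counts relative to library size, scaled by the trimmed mean of M values, TMM) in NET samples and 8.19 to 9.26 CPM in control samples, which is small beside the Nfkb2 values.

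The promoters below are shown because they carry letters that match the κB motif by which these genes are known to be induced. RefSeq promoter windows of 300 bases (mm10, 250 before and 50 after a start site) were found for 7 of the 10 genes. The κB consensus of 10 bases was searched on both strands, and a palindromic match can count on both with its register shifted by a base. Of all 32544 distinct promoters, 2764 (8.49%) held a match, and among the members 8 of 10 promoters did. These were all 3 promoters of Nfkb2, those of Rel, Nfkbia, Nfkbie and Bcl3, and 1 of 2 of Tnfaip3, but not that of Traf1. The only match in the Bcl3 promoter did not lie wholly before its start site, unlike the matches described below. The first Nfkb2 promoter held GGGAATTCCC beginning 39 bases before its start site and GGGGCTTTCC beginning 11 bases before it. The stretches below are from the second Nfkb2 promoter at chr19:46305445-46305508 (plus strand), Rel at chr11:23771012-23771101 (minus strand), Nfkbia at chr12:55492648-55492716 (minus strand), Nfkbie at chr17:45555554-45555643 (plus strand) and Tnfaip3 at chr10:19015411-19015462 (minus strand). Each is written 5′ to 3′ on the strand of the gene, with the matching letters, on either strand, in capitals.
Nfkb2: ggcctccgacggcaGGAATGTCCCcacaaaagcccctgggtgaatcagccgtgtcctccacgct
Rel: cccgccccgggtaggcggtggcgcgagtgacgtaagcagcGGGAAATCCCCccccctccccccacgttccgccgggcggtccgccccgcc
Nfkbia: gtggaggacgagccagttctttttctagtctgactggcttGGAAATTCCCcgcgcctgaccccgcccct
Nfkbie: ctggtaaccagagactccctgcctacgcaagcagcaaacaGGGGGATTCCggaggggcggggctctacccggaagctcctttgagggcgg
Tnfaip3: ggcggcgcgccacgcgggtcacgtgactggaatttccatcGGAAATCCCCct

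The match begins 92 bases before the start site in Rel, 29 in Nfkbia, 106 in Nfkbie and 12 in the Tnfaip3 stretch shown. The same Tnfaip3 promoter held a further match, GGGACACCCC, beginning 125 bases before the start site. A match describes the letters only and does not show that a factor is bound. Among the genes with a match, Nfkb2, Nfkbia, Bcl3 and Tnfaip3 were higher with NETs, Rel was lower and Nfkbie did not pass the test, as given below. Traf1, without a match, was higher.

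With NETs, 6 of the 10 genes were higher (Nfkb1, Nfkb2, Nfkbia, Bcl3, Tnfaip3 and Traf1), 2 were lower (Rel and Nfkbiz), and Relb and Nfkbie did not pass the test at an edgeR quasi-likelihood adjusted p below 0.05. The largest differences were those of Bcl3 (2.25-fold higher), Traf1 (2.00-fold higher) and Nfkbiz (1.78-fold lower). Over all genes tested 44.6% were called, 22.3% higher and 22.3% lower. When a log2 fold change beyond 0.58 was also required, 5 members were higher, against 13.4% of all genes, and 1 was lower, against 11.9%. For 7 of the 10 members, and for 54.7% of all genes, NET and control values did not overlap. The median log2 fold change was 0.52 over the members and -0.01 over all genes tested. The members were chosen with earlier results of these data known, so these counts carry no test of their own.

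**Figure D1:**
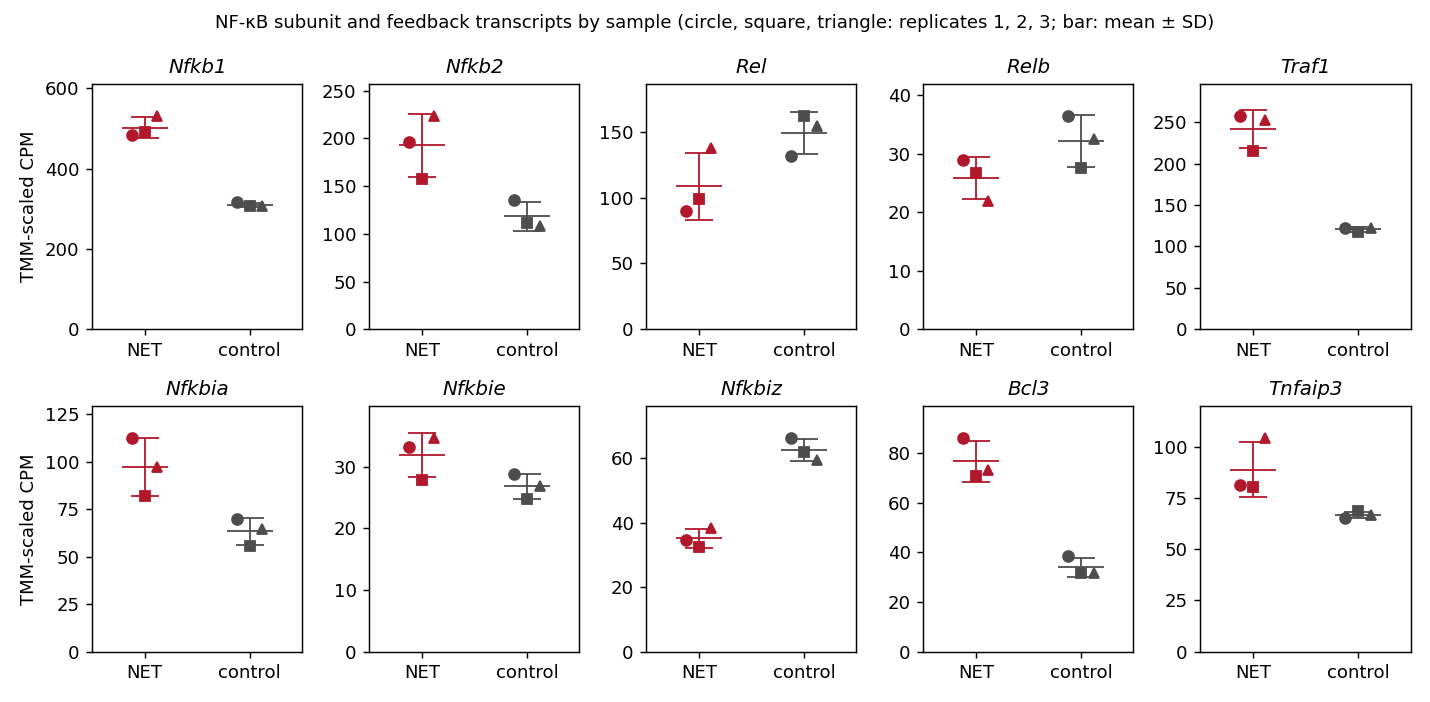
TMM-scaled CPM of the 10 genes in each of the 3 NET samples (red) and the 3 control samples (grey). Symbols mark replicates 1 to 3, the long bar the mean and the short bars ± SD. NET and control values are separate for Nfkb1, Nfkb2, Traf1, Nfkbia, Nfkbiz, Bcl3 and Tnfaip3, and they overlap for Rel, Relb and Nfkbie.

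Markers of several cell types moved with the groups. The 8 T cell markers summed to 2413 to 2677 CPM in NET samples and 3431 to 3657 CPM in control samples, with 6 lower and 1 higher, and Cd8a had 786 to 877 CPM in NET samples and 1125 to 1287 CPM in control samples. In bulk RNA, fewer cells of a type and less RNA per cell cannot be told apart. The 10 B cell markers, of which 9 were higher, summed to 133 to 214 CPM in NET samples and 30.7 to 40.01 CPM in control samples. B cells are known to express Nfkb1, Nfkb2, Rel, Relb, Bcl3, Traf1, Lta and Ebi3. The 10 neutrophil markers with values summed to 34.3 to 53.6 CPM in NET samples and 20.0 to 23.5 CPM in control samples, 5 of 6 tested were higher, and Ly6g was blank. S100a8 had 3.81 to 4.81 CPM in NET samples and 0 to 0.214 CPM in control samples, and Camp was at 0 in all 3 control samples. The 9 macrophage markers with values summed to 63.6 to 70.8 CPM in NET samples and 43.0 to 65.7 CPM in control samples, 3 of 6 tested were higher and 1 was lower. The part of these cells in the differences between the groups was not tested.

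The 7 dendritic cell markers with values summed to 103 to 114 CPM in NET samples and 245 to 266 CPM in control samples, with 2 of 5 tested higher and 2 lower. Most of that sum is Ccr7, which T cells also express, at 82.7 to 91.3 CPM in NET samples and 230.3 to 248 CPM in control samples. Without Ccr7 the other 6 summed to 20.8 to 23.3 CPM in NET samples and 14.3 to 17.6 CPM in control samples, with Xcr1 6.96-fold and Zbtb46 1.75-fold higher and Itgax 1.93-fold lower. The 4 markers of CD4+ and regulatory T cells summed to 65.9 to 79.8 CPM in NET samples and 81.4 to 92.3 CPM in control samples, with 1 higher and 3 lower. The 3 natural killer cell markers with values summed to 0.722 to 1.10 CPM in NET samples and 0.780 to 1.49 CPM in control samples, and none passed the filter. The part of these cells was not tested either.

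The precursor genes were higher with NETs. Nfkb1, which encodes p105 and p50, had 483, 491 and 532 CPM in NET samples 1 to 3, against 316, 307 and 306 CPM in control samples 1 to 3. Every NET sample lay above every control sample, and the control samples differed little among themselves. The log2 fold change was 0.70 ± 0.09 (SE, n = 3 each, edgeR adjusted p = 0.000122), or 1.62-fold.

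Nfkb2 encodes p100 and p52, the subunit of the non-canonical pathway. It had 197, 158 and 224 CPM in NET samples 1 to 3, against 136, 112 and 108 CPM in control samples 1 to 3. The groups did not overlap, and NET sample 2 and control sample 1 were the closest values. The log2 fold change of 0.70 ± 0.14 (edgeR adjusted p = 0.00243) was of the same size as that of Nfkb1, with a larger error.

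Rel went the other way. It had 89.9, 98.7 and 138 CPM in NET samples 1 to 3, against 131, 162 and 154 CPM in control samples 1 to 3. NET samples 1 and 2 lay below all control samples, but NET sample 3 lay above control sample 1, so the groups overlapped. The log2 fold change was -0.46 ± 0.15 (edgeR adjusted p = 0.0345), or 1.37-fold lower. This call was lost in 6 of 17 alternative fits. Without NET sample 1 the edgeR adjusted p was 0.106, without NET sample 2 it was 0.126, without control sample 2 it was 0.108 and without control sample 3 it was 0.0978, and limma on FPKM values gave 0.0519 and 0.0694. The log2 fold change of Rel stayed between -0.66 and -0.33 over the 17 fits.

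Relb encodes the partner of p52. It had 28.8, 26.7 and 21.9 CPM in NET samples 1 to 3, against 36.5, 27.6 and 32.4 CPM in control samples 1 to 3. NET sample 1 lay above control sample 2, so the groups overlapped, and the log2 fold change of -0.32 ± 0.14 did not pass the test (edgeR adjusted p = 0.083). It passed without control sample 2, at an edgeR adjusted p of 0.0469.

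Rela, the remaining family member, is outside the set of 10 genes but belongs to the same pool. It had 76.7, 74.1 and 70.7 CPM in NET samples 1 to 3, against 87.3, 69.6 and 69.7 CPM in control samples 1 to 3. The groups overlapped and the log2 fold change was -0.03 ± 0.11 (edgeR adjusted p = 0.826).

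Among the inhibitors, Nfkbia was higher with NETs. It encodes IκBα, the rapidly resynthesised inhibitor of dimers of p50 and RelA, and had 112, 82.1 and 97.3 CPM in NET samples 1 to 3, against 69.5, 55.6 and 64.7 CPM in control samples 1 to 3. All NET samples lay above all control samples, and sample 2 was the lowest of its group on both sides. The log2 fold change was 0.62 ± 0.13 (edgeR adjusted p = 0.00328), or 1.54-fold.

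Nfkbie, which encodes IκBε, had 33.3, 27.8 and 34.7 CPM in NET samples 1 to 3, against 28.8, 24.8 and 26.9 CPM in control samples 1 to 3. NET sample 2 lay below control sample 1, so the groups overlapped. Its log2 fold change of 0.25 ± 0.11 did not pass the test (edgeR adjusted p = 0.102) but did so without NET sample 2, at an edgeR adjusted p of 0.0413.

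The nuclear IκB proteins encoded by Nfkbiz and Bcl3 bind p50 or p52 on DNA and modulate transcription there rather than in the cytoplasm. Nfkbiz (IκBζ) had 34.7, 32.5 and 38.3 CPM in NET samples 1 to 3, against 66.2, 61.8 and 59.6 CPM in control samples 1 to 3. The groups were far apart, with a log2 fold change of -0.83 ± 0.10 (edgeR adjusted p = 8.84e-05). Bcl3 had 86.0, 70.7 and 73.2 CPM in NET samples 1 to 3, against 38.5, 31.8 and 31.7 CPM in control samples 1 to 3. It moved in the opposite direction to Nfkbiz and had the largest fold change of the 10 genes, 1.17 ± 0.12 on the log2 scale (edgeR adjusted p = 2.77e-05).

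The feedback genes were both higher. Tnfaip3 encodes A20, an enzyme that edits ubiquitin chains and shuts off signalling to the IκB kinases. It had 81.5, 80.6 and 104 CPM in NET samples 1 to 3, against 65.3, 68.5 and 66.6 CPM in control samples 1 to 3. The groups did not overlap and NET sample 3 was the highest. The log2 fold change of 0.41 ± 0.11 (edgeR adjusted p = 0.0131) stayed under the fold threshold of 0.58. Traf1, a signalling adaptor of TNF receptor family members such as 4-1BB, had 258, 216 and 253 CPM in NET samples 1 to 3, against 122.7, 117 and 122.7 CPM in control samples 1 to 3. Its NET values were all well above its control values, at a log2 fold change of 1.00 ± 0.10 (edgeR adjusted p = 2.27e-05).

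**Figure D2:**
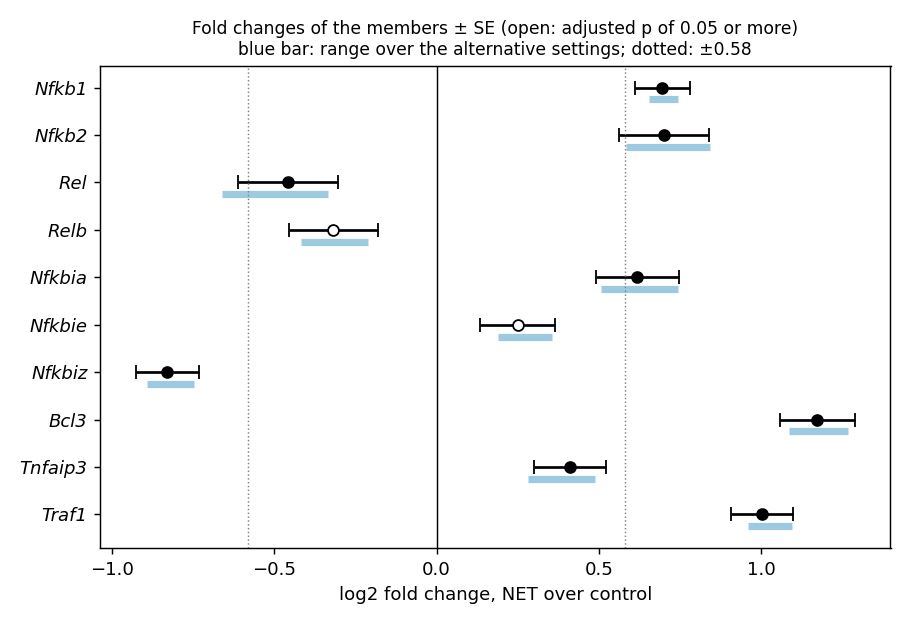
Log2 fold change, NET over control, of the 10 genes from edgeR (points, ± SE, n = 3 samples in each group). Filled points passed an adjusted p of 0.05, the blue bars give the range over 17 alternative fits and the dotted lines mark ±0.58. Bcl3 and Traf1 lie farthest to the right and Nfkbiz farthest to the left, and no blue bar crosses 0.

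No library was highest or lowest throughout. Within the NET group, sample 3 was the highest for 6 members and sample 2 the lowest for 7. Within the control group, sample 1 was the highest for 8 members. Both libraries numbered 1 stood apart on the second principal component of all genes (8.29% of the variance), while the first (81.1%) separated NET from control samples. Without both of them no call at an adjusted p below 0.05 changed among the 10 genes. The number higher past the fold threshold fell from 5 to 4.

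Levels can be compared between genes only per transcript length, for which the deposited FPKM values were used. In NET samples Nfkb1 was the highest member at 131 ± 7.3 FPKM (SD, n = 3), followed by Traf1 at 107 ± 11 FPKM, Nfkbia at 63.7 ± 10 FPKM, Nfkb2 at 62.0 ± 12 FPKM and Bcl3 at 43.0 ± 4.9 FPKM. Below these lay Tnfaip3 at 20.5 ± 3.2 FPKM, Rel at 14.7 ± 3.5 FPKM, Nfkbie at 13.4 ± 1.6 FPKM, Relb at 12.1 ± 1.7 FPKM and Nfkbiz at 9.86 ± 0.86 FPKM. The ranges of neighbours overlapped for Nfkbia and Nfkb2 and for every neighbouring pair from Tnfaip3 down. The ranges therefore do not fix the order within such a pair. Genes farther apart could be separate, and the lowest Tnfaip3 value (18.5 FPKM) lay above the highest of Nfkbie (14.6 FPKM), Relb (13.5 FPKM) and Nfkbiz (10.8 FPKM).

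In control samples the first 4 ranks were held by the same genes, Nfkb1 at 79.6 ± 2.3 FPKM, Traf1 at 52.4 ± 2.0 FPKM, Nfkbia at 40.9 ± 5.0 FPKM and Nfkb2 at 36.2 ± 5.5 FPKM. Rel came next at 19.9 ± 1.9 FPKM, its range overlapping that of Bcl3 at 18.9 ± 2.5 FPKM, which overlapped that of Nfkbiz at 17.2 ± 1.1 FPKM. Tnfaip3 at 15.2 ± 0.28 FPKM and Relb at 14.8 ± 2.3 FPKM overlapped as well, and Nfkbie was lowest at 11.1 ± 0.97 FPKM. Bcl3, Rel and Nfkbiz thus lay side by side in control samples, whereas in NET samples Bcl3 was above every Rel and Nfkbiz value.

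The make-up of the subunit pool was expressed as each gene's share of the summed FPKM of Nfkb1, Nfkb2, Rel, Rela and Relb. Nfkb1 made up 51.1%, 54.4% and 51.4% of the pool in NET samples 1 to 3, against 42.2%, 45.1% and 44.8% in control samples 1 to 3. Nfkb2 made up 25.8%, 21.3% and 26.9% in NET samples, against 21.8%, 19.2% and 18.8% in control samples. The Nfkb1 shares did not overlap between the groups, and the Nfkb2 shares did.

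The subunits with a transactivation domain took smaller shares with NETs. Rel made up 4.95%, 5.67% and 6.90% in NET samples 1 to 3, against 9.15%, 12.3% and 11.7% in control samples 1 to 3. The shares of Rela were 12.3 ± 1.2% in NET samples and 16.8 ± 1.1% in control samples (SD, n = 3), and those of Relb 4.88 ± 0.94% in NET samples and 8.16 ± 0.85% in control samples. None of these 3 genes' shares overlapped between the groups. The two-sided exact permutation p was 0.1 for Nfkb1, Rel, Rela and Relb, the smallest that 3 against 3 samples allow, and 0.2 for Nfkb2. A share can fall because another gene's transcript rises, and transcript shares do not measure the proteins or the processing of the precursors.

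**Figure D3:**
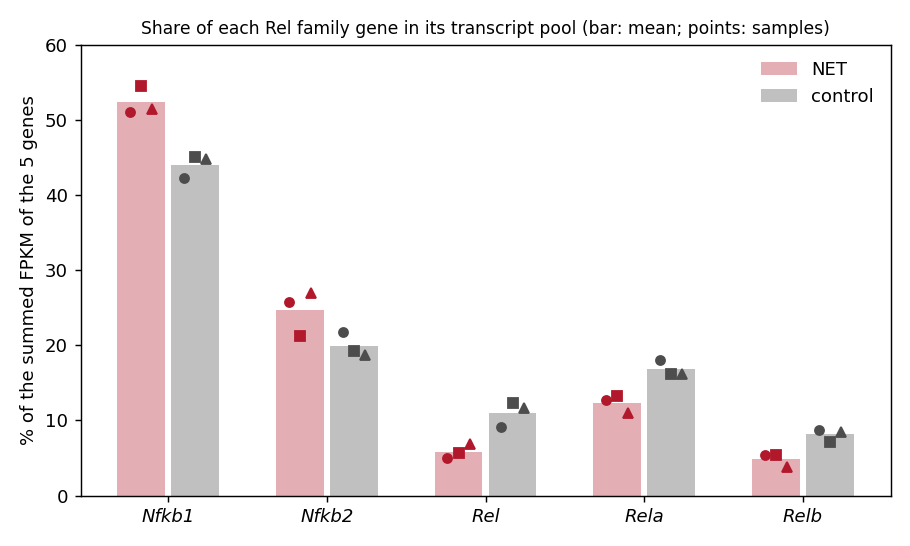
Share of each Rel family gene, in % of the summed FPKM of the 5 genes, in NET samples (red) and control samples (grey). Bars start at 0 and give means, and the symbols mark samples 1 to 3. Nfkb1 averages 52.3% with NETs and 44.0% in controls, while Rel averages 5.84% with NETs and 11.1% in controls.

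Ratios within each sample compare members without the scaling between libraries. The log2 ratio of Nfkb1 to Rel was 3.37, 3.26 and 2.90 in NET samples 1 to 3, against 2.21, 1.87 and 1.94 in control samples 1 to 3. All NET ratios were higher, by 1.17 on average. For Nfkb2 to Rel the mean difference was 1.23, and for Relb to Rel it was 0.17 with overlapping groups.

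The nuclear IκB genes diverged most. The log2 ratio of Bcl3 to Nfkbiz was 2.32, 2.11 and 1.94 in NET samples 1 to 3, against 0.24, 0.05 and 0.09 in control samples 1 to 3. Bcl3 was thus near Nfkbiz per transcript length in every control sample and well above it in every NET sample, a mean difference of 2.00. Nfkbia to Nfkbiz and Nfkbie to Nfkbiz differed by 1.44 and 1.07, without overlap. Rel and Nfkbiz, by which the ratios divide, were the members called lower, so the ratios are not results separate from those calls. Nfkbie itself did not pass the test. Over the 6 ratios the two-sided exact permutation p was 0.1, the smallest possible, and 0.12 after Benjamini-Hochberg adjustment over the 6 ratios, except for Relb to Rel with 0.8 before and after adjustment.

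The other genes of the pathway were taken from a list of 85 genes in 5 role groups. Of these, 84 were tested (Il15 was below the filter), 26 were higher with NETs (31.0%), 18 were lower (21.4%) and 40 did not pass the test, with a median log2 fold change of -0.03. Over all genes tested 22.3% were higher and 22.3% lower, so the lower share of the list was near that of all genes. The list, like the members, was chosen with earlier results of these data known. Its counts and shares, given by role below, therefore carry no test of their own.

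Of 8 other subunits, inhibitors and cofactors, 2 were higher (25%) and 1 was lower (12.5%), against 22.3% each of all genes tested. The median log2 fold change was 0.03. Nfkbid, which encodes the nuclear IκB protein IκBNS, had 57.3, 53.3 and 51.0 CPM in NET samples 1 to 3, against 35.6, 31.0 and 30.0 CPM in control samples 1 to 3. It was higher in every NET sample, as Bcl3 was, at a log2 fold change of 0.74 ± 0.10 (edgeR adjusted p = 0.000245). Nkiras2, a Ras-like protein that binds IκB, rose by 0.33 ± 0.11 and the corepressor gene Tle1 had a log2 fold change of -0.55 ± 0.18 (edgeR adjusted p = 0.0299 and 0.0288). The call was lost in 4 of 17 alternative fits for Nkiras2, each without 1 library (NET sample 1 or 3, control sample 2 or 3; adjusted p up to 0.109), and in 7 of 17 for Tle1 (log2 fold change -0.61 to -0.20). Those for Tle1 were limma on FPKM at both pseudocounts, leaving out NET sample 2 or 3, control sample 1 or 3, and both libraries numbered 1, with adjusted p up to 0.14.

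Of 12 kinase and scaffold genes, 2 were higher and 2 were lower (16.7% each, against 22.3% each of all genes tested). The median log2 fold change was -0.14. Ikbkb, the catalytic subunit that phosphorylates IκBα in the canonical pathway, averaged 85.8 ± 3.1 CPM in NET samples and 138.8 ± 4.4 CPM in control samples (SD, n = 3), with a log2 fold change of -0.69 ± 0.08 and an edgeR adjusted p of 9.57e-05. The related kinase gene Ikbke averaged 86.4 ± 9.7 CPM in NET samples and 145 ± 10 CPM in control samples (edgeR adjusted p = 0.000283). On the non-canonical side, Map3k14, which encodes the kinase NIK, averaged 37.0 ± 3.9 CPM in NET samples and 26.8 ± 1.7 CPM in control samples (edgeR adjusted p = 0.00613). Chuk, which encodes the IκB kinase subunit that acts downstream of NIK, was higher by 0.30 ± 0.10 on the log2 scale (edgeR adjusted p = 0.037), a call lost without NET sample 2 or 3 or control sample 1 or 3 (4 of 17 fits, edgeR adjusted p up to 0.103). The scaffold gene Ikbkg had a log2 fold change of -0.19 ± 0.08 and did not pass the test (edgeR adjusted p = 0.0961).

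Of 18 adaptor and antigen receptor relay genes, 2 were higher (11.1%, against 22.3% of all genes tested) and 8 were lower (44.4%, against 22.3%), with a median of -0.29. Prkcq encodes the kinase PKCθ that links the T cell receptor to NF-κB, and it averaged 191 ± 22 CPM in NET samples and 329.7 ± 28 CPM in control samples (log2 fold change -0.79 ± 0.11, edgeR adjusted p = 0.000282).

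Malt1, the protease and scaffold partner of Bcl10, had 220.3, 203 and 290.2 CPM in NET samples 1 to 3, against 145, 161 and 159 CPM in control samples 1 to 3. It was higher in every NET sample (log2 fold change 0.61 ± 0.13, edgeR adjusted p = 0.00385), while Bcl10 did not pass the test (-0.17 ± 0.09, edgeR adjusted p = 0.155). The adaptor gene Traf5 had a log2 fold change of -0.83 ± 0.11 (edgeR adjusted p = 0.000191) and the kinase gene Ripk2 one of 0.49 ± 0.11 (edgeR adjusted p = 0.00449). Also lower in this group were Prkcb, Card9, Irak1, Irak2 and Irak4, with log2 fold changes of -0.46, -0.73, -0.58, -0.54 and -0.37. Their edgeR adjusted p were 0.0041, 0.0201, 0.00105, 0.00569 and 0.00891, in that order. Card9 was weakly expressed, at 1.40 to 2.91 CPM over all samples. These genes were named after their values were seen, as were Bcl10 and Ikbkg above, which did not pass the test.

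Of 17 ubiquitin ligases, deubiquitinases and their partners, 4 were higher and 4 were lower (23.5% each, near the 22.3% each of all genes tested). The median log2 fold change was -0.01. Zc3h12a, which encodes the RNase regnase-1 that degrades cytokine mRNAs, averaged 33.1 ± 0.98 CPM in NET samples and 18.6 ± 0.84 CPM in control samples (log2 fold change 0.83 ± 0.10, edgeR adjusted p = 7.48e-05). Rnf11 and Tnip1, both partners of A20, were higher by 0.82 ± 0.10 and 0.59 ± 0.10 on the log2 scale (edgeR adjusted p = 9.49e-05 and 0.000871). Itch and Tax1bp1, which join A20 and Rnf11 in a complex, had log2 fold changes of 0.05 ± 0.12 and 0.19 ± 0.13 and did not pass the test (edgeR adjusted p = 0.756 and 0.273). This pair was named with its values known. The ubiquitin ligase gene Peli1, which in mice restrains T cell activation by targeting c-Rel, averaged 110.3 ± 6.9 CPM in NET samples and 202 ± 17 CPM in control samples (log2 fold change -0.87 ± 0.10, edgeR adjusted p = 6.47e-05). N4bp1, a regulator of cytokine responses, and Rnf31, the catalytic subunit of the linear ubiquitin ligase, were also lower, at -0.75 ± 0.11 and -0.56 ± 0.12 (edgeR adjusted p = 0.000393 and 0.00404).

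Of 29 genes known as NF-κB targets, 16 were higher with NETs (55.2%, against 22.3% of all genes tested). Of the same genes, 3 were lower (10.3%, against 22.3%), and the median log2 fold change was 0.73. These targets were listed with earlier results of these data known, so the shares carry no test. Lta, which encodes lymphotoxin α, had 1125, 783 and 931 CPM in NET samples 1 to 3, against 49.4, 36.8 and 36.4 CPM in control samples 1 to 3. Tnf had 186, 160 and 193 CPM in NET samples 1 to 3, against 32.8, 33.6 and 31.2 CPM in control samples 1 to 3. Ebi3, a subunit of the cytokines IL-27 and IL-35, had 18.1, 15.1 and 12.7 CPM in NET samples 1 to 3, against 1.66, 1.52 and 1.55 CPM in control samples 1 to 3. All 3 genes had every NET sample far above every control sample, with log2 fold changes of 4.53 ± 0.18, 2.46 ± 0.10 and 3.27 ± 0.19 (edgeR adjusted p = 9.23e-08, 1.22e-07 and 7.3e-07). Each of these fold changes was larger than any among the 10 subunit and feedback genes.

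Not every target was higher. Tapbp, a chaperone of peptide loading on MHC class I, averaged 282 ± 12 CPM in NET samples and 420.4 ± 12 CPM in control samples, and Irf1, an interferon-responsive transcription factor, 169 ± 8.4 CPM in NET samples and 245 ± 3.0 CPM in control samples (edgeR adjusted p = 0.000406 and 0.000579). The chemokine gene Ccl3 was lower by the test (log2 fold change -0.51 ± 0.18, edgeR adjusted p = 0.0411), although its groups overlapped and 9 of 17 alternative fits lost the call. Il2, a textbook target of c-Rel in T cells, had 0.773, 0.258 and 1.21 CPM in NET samples 1 to 3, against 1.61, 0.488 and 1.07 CPM in control samples 1 to 3. At these levels a difference could not be seen (log2 fold change -0.51 ± 0.52, edgeR adjusted p = 0.463), and Il2 was named after its values were seen.

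**Figure D4:**
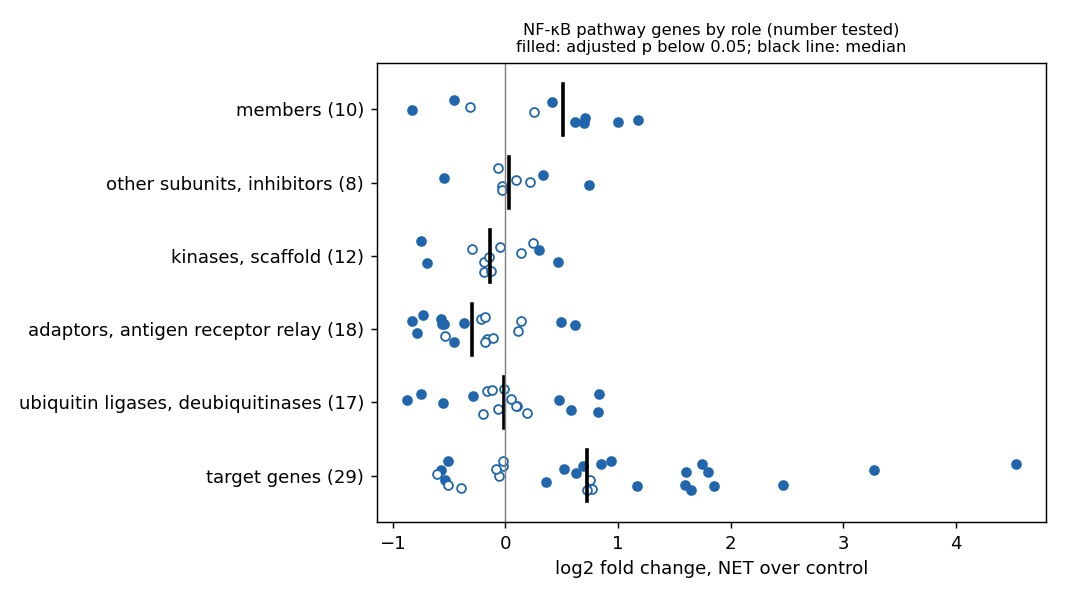
Log2 fold change, NET over control, of the 10 members and of 84 other pathway genes grouped by role, each point a gene. Filled points passed an adjusted p of 0.05 and black lines give medians, 0.73 for the target genes and -0.29 for the adaptors and antigen receptor relay. The 3 points beyond 2 are Lta, Ebi3 and Tnf.

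The genes whose pattern over the 6 samples was most like that of Nfkb1, by Pearson's r of log2 CPM, were Zmiz1 (r = 0.9994), Atp2a2 (r = 0.9991) and Spred1 (r = 0.9990). For Rel they were Lrch3 (r = 0.9936), Atxn1 (r = 0.9912) and Xpnpep3 (r = 0.9902). With 6 samples in 2 groups such values are common, 1267 genes passing 0.95 for Nfkb1 and 189 for Rel, and they describe a shared pattern only.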

How the data were processed

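Poly(A) RNA of 3 NET and 3 control samples was sequenced as strand-marked, paired-end libraries. The submitters' processing notes name the build mm10, and aligner, counter, annotation and use of strand are not given in the sources used here. Deposited by the authors were estimated counts per gene, not scaled between libraries (31.6% of the values are whole to 2 decimals), and FPKM values, scaled by the authors for length and depth. Of 22064 genes listed, 6459 were blank and were treated as missing. Library totals were 18696355 to 19425700.

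Counts were rounded, filtered with filterByExpr (12546 genes left), scaled by TMM and tested between groups in edgeR 4.0.16 (quasi-likelihood F test, no other term in the model, R 4.3.3), with two-sided p-values adjusted by Benjamini-Hochberg over all genes tested. The threshold was 0.05. CPM are TMM-scaled, and SE are from the F statistic. Shares and log2 ratios used FPKM with two-sided exact permutation tests. Log2 CPM for likeness used a prior count of 2.

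The members and lists were chosen with earlier results of these data known. All members, Rela, up to 3 genes with the smallest adjusted p in each direction of each role group, defining markers and the 3 genes most like Nfkb1 and Rel were named, and others where stated. Some genes that this rule takes are counted but not reported here.

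Alternatives were DESeq2 1.42.0, limma-voom and limma 3.58.1 on log2(FPKM + 1) and log2(FPKM + 0.1), other scalings and filters, a replicate block, leaving out each library, and leaving out both libraries numbered 1. Scripts were tested on simulated data. Gene coordinates are from GENCODE and promoters from RefSeq, both on mm10.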

Additional observations from a re-analysis of the deposited data

How the results depend on the processing

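Over 17 alternative fits, 160 of 170 results of the members kept their direction and side of the threshold, 6 lost the call (all Rel), 4 gained one (Relb and Nfkbie) and none reversed. With limma on log2(FPKM + 1) and on log2(FPKM + 0.1), 1 member rather than 2 was lower. Leaving out each library in turn gave 6 to 7 members higher and 4 to 5 higher past the fold threshold. On the lower side it gave 1 to 2 members lower and 1 to 2 lower past the fold threshold. Rela, without a call, changed sign to 0.0136 with upper quartile scaling, and to 0.0066 and 0.0070 with limma on FPKM. It was 0.0553 without both libraries numbered 1, and -0.0913 to 0.0815 leaving out each library. Of 425 results of the named pathway genes 24 lost the call, for Nkiras2, Tle1, Chuk and Ccl3. With CPM in place of FPKM the share differences, NET minus control, were 10.5 points for Nfkb1, -9.89 for Rel, -2.78 for Rela and -1.80 for Relb, because CPM does not divide by length. Leaving out each library, the log2 ratio of Relb to Rel differed by -0.0377 to 0.465.

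The replicate numbers were not taken as pairs: same-numbered samples deviated together at r = 0.433, 0.138 and 0.0447, and only the samples numbered 1 correlated best with their own number. With the replicate block 7 members were higher and 3 lower, since Nfkbie (edgeR adjusted p = 0.0256) and Relb (edgeR adjusted p = 0.021) passed.

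With 3 samples a group, the permutation tests of shares and ratios cannot pass 0.05. For weakly expressed targets such as Il2 the low counts limit what can be seen.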
